A study of Mus musculus with 8 samples.

Results

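The extracellular matrix genes of mouse liver, together with the enzymes that remodel the matrix, were followed across 8 arrays. Members were chosen by gene symbol alone: the collagens, the laminins, the matrix metalloproteinases (MMPs), their tissue inhibitors (TIMPs), the ADAMTS proteases, and Lum, Dcn, Sparc, Fn1, Bgn, Reln and Pdgfrb. The rule reads no measured value, but its symbols were chosen with earlier results of these data known. Shares of members set beside shares of all probe sets are therefore descriptions and were not tested. The rule took 82 of the 12393 genes that had a probe set with 1 gene symbol, and 133 of the 20380 such probe sets. A probe set is the group of short oligonucleotides that reports 1 transcript on an Affymetrix array. Of the 133 probe sets, 81 passed a filter on low values and were tested, which covered 56 genes; the other 26 genes are accounted for below. The filter used the mean over all 8 arrays, so a member high in 1 group could pass through that group.

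Liver RNA of 8 mice was measured, 1 array per mouse, in 4 groups of 2. Every mouse carried a null low density lipoprotein receptor on the C57B6 background, was 8 months old and had eaten Western diet for 12 weeks. All had been given an adeno-associated virus, AAV2.8, at 10 weeks of age, whose transgene was driven by the human thyroxine binding globulin promoter, described in the labels as liver specific. The transgene encoded either GFP as control or the human form of LXRα, a nuclear receptor that oxysterols activate. T0901317, a synthetic LXR agonist, was injected intraperitoneally at 5 mg/kg for 3 days, and the control mice received vehicle for the same 3 days. The groups are called GFP vehicle, LXRα vehicle, GFP T0901317 and LXRα T0901317. No group lacked the virus, the diet or the receptor deletion, so every value below is from livers that carry all of them.

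In liver, fibrillar collagens and the small proteoglycans that coat their fibrils are made mainly by stellate cells and portal fibroblasts, which carry the platelet-derived growth factor receptor β encoded by Pdgfrb. Type IV collagen and laminins form basement membranes around vessels and bile ducts, while fibronectin (Fn1) is also secreted into plasma by hepatocytes. MMPs and ADAMTS proteases cut matrix proteins, and TIMPs block MMPs.

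The 250 bases before the transcription start of 4 members are shown, because their arrays are compared below: a chain of type I collagen (Col1a2), type III collagen (Col3a1), the collagen-binding glycoprotein osteonectin (Sparc) and the proteoglycan biglycan (Bgn). The sequences are RefSeq's on GRCm38.p6, at chr6:4505368-4505617 (plus strand) for Col1a2, chr1:45311288-45311537 (plus strand) for Col3a1, chr11:55420081-55420330 (minus strand) for Sparc and chrX:73483351-73483600 (plus strand) for Bgn. They run 5′ to 3′ and end next to the start, and capitals mark matches to the motifs searched on both strands.
Col1a2: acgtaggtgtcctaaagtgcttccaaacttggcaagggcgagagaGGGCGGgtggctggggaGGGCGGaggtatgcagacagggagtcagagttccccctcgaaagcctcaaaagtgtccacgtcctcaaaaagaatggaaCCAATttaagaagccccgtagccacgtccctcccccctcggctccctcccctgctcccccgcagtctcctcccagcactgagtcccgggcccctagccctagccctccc
Col3a1: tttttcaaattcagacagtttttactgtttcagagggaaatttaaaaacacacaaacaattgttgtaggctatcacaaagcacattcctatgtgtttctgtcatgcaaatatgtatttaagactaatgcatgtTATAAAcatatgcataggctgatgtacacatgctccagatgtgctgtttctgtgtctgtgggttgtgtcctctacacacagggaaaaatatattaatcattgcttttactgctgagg
Sparc: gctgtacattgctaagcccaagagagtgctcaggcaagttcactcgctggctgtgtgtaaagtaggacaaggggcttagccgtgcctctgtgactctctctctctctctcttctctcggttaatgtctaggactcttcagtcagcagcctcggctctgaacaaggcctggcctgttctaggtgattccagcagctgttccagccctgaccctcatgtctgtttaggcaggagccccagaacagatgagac
Bgn: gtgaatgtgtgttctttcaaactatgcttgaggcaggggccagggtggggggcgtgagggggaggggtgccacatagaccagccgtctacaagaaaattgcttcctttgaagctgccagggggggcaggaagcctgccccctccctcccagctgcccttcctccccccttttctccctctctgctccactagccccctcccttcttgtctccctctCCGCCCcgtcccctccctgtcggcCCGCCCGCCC

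The letters of 5 motifs were searched: the TATA box TATAAA, the CCAAT box CCAAT, the GC box GGGCGG, the AP-1 site TGANTCA and the DR4 element, which is AGGTCA repeated directly after 4 bases of any kind, as LXR binds it as a dimer with the retinoid X receptor. Col1a2 held 1 CCAAT box and 2 GC boxes in this window, Col3a1 held 1 TATA box, Bgn held 3 GC boxes, some of which share bases, and Sparc held none of the 5. RefSeq windows were matched for 53 of the 82 members, with 60 windows in all. The GC box occurred in 27 of these 60 windows (45%), against 32.7% of all 32851 windows. A TATA box occurred in 13 (21.7%, against 12.4%), an AP-1 site in 9 (15%, against 6.75%) and a CCAAT box in 18 (30%, against 33.8%). The direct repeat was in 0 of the 60 windows and in 0.0152% of all windows. These are matches of letters and not shown to be bound. Col4a1 and Col4a2 encode the 2 main chains of type IV collagen. They lie head to head on opposite strands of chromosome 8 in the same annotation. From the starts of their promoter windows, 11312826 for Col4a1 and 11312805 for Col4a2, they share 22 bases. The annotated Col4a1 gene reaches further, to 11312889, so the overlap of the annotated genes is longer.

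Across the series, the median intensity of an array lay between 21.0 and 23.2, and replicate arrays had a Pearson r of 0.949 to 0.978 over tested probe sets. All 17 hepatocyte marker genes passed the filter, with a summed intensity of at least 138406 on every array. The 3'/5' ratio of β-actin, a measure of lost 5' transcript ends, ranged from 2.08 to 3.08 on the 4 vehicle arrays. On the T0901317 arrays it was 7.56 and 11 with GFP, and 2.75 and 36.3 with LXRα. By an exact two-sided permutation test over 70 splits of T0901317 against vehicle arrays, the p for this ratio was 0.0571. Replicates of a member differed by a median of 0.174 (log2, absolute) in GFP vehicle, 0.155 in LXRα vehicle, 0.235 in GFP T0901317 and 0.211 in LXRα T0901317 livers. With 2 arrays a group, their number limits the precision of every value. The p-values of probe sets (limma) compare a difference with a spread estimated over all 4 groups, not over the compared groups alone. In whole liver, fewer cells of a type and less RNA per cell cannot be told apart.

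Without added agonist, a set of structural matrix genes lay lower in livers with the LXRα transgene than in those with GFP, and no single member passed the test. Of the 81 member probe sets, 49 were lower and 32 higher, with a median log2 difference of -0.13 against 0.05 over all 15838 tested probe sets. At an adjusted p under 0.05, 0 member probe sets were called by limma, against 0.00631% of all. At an unadjusted p under 0.05, 12 were lower (14.8% of members, against 2.89% of all) and 1 was higher (1.23%, against 2.27%). Below -1 lay 8 member probe sets, against 355 of all 15838, and above 1 lay 0, against 113 of all. The 8 were those of Col3a1, Mmp12, Col4a1, Col1a1, Lum, Sparc (on both of its probe sets) and Col14a1. The lowest value was that of Col3a1 at -2.38.

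With T0901317 in livers with GFP, member values lay on both sides of zero, with 0 probe sets called by limma against 0% of all. Their median log2 difference was -0.06, close to the -0.05 of all probe sets. At an unadjusted p under 0.05, 8 member probe sets were lower (9.88%, against 4.65% of all) and 4 were higher (4.94%, against 8.5%). That split moved with the scaling: 4 lower and 4 higher after quantile normalization, and 4 lower and 7 higher after centring the arrays on their medians.

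With T0901317 in livers with LXRα, a group of structural members had higher values, and no single member passed the test. At an adjusted p under 0.05, 0 member probe sets were called by limma, against 0.0253% of all. At an unadjusted p under 0.05, 19 were higher (23.5%, against 7.88% of all) and 6 were lower (7.41%, against 5.3%), while the median of all 81 was -0.07. On the log2 scale 20 member probe sets lay above 1 and 0 below -1. Of all 15838 tested probe sets, 706 lay above 1 and 465 below -1. Leaving out the 3 T0901317 arrays of high β-actin ratio left a single LXRα T0901317 array, replicate 1. The members' median was then -0.12, with 36 of the 81 above zero and 45 below it. With all 8 arrays it was -0.07, with 37 above zero and 44 below it, so this summary moved little. Without LXRα T0901317 replicate 1, 2 members were called, Dcn at 1.89 (SE 0.25, limma adjusted p = 0.0314) and Pdgfrb at 2.36 (SE 0.40, limma adjusted p = 0.0481), while 2.99% of all probe sets were called. That fit left a single LXRα T0901317 array, the one with the β-actin ratio of 36.3, which is assumed to vary like the other groups.

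This comparison and the first share the LXRα vehicle arrays, so a low value there enters both with opposite sign; the GFP vehicle arrays are shared in the same way between the first 2 comparisons. Both LXRα vehicle arrays lay below the 6 other arrays in 20 of the 81 member probe sets (24.7%), against 5.45% of all tested probe sets. Taking 1 probe set per gene, the brightest, this held for 14 of the 56 tested genes: Col1a1, Col1a2, Col3a1, Col5a1, Col4a1, Col4a2, Col6a3, Col14a1, Lum, Dcn, Bgn, Sparc, Pdgfrb and Timp3.

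With T0901317 given to both, livers with LXRα and with GFP differed little: 0 member probe sets were called by limma, against 0% of all, and the median log2 difference was 0.04. At an unadjusted p under 0.05, 2 probe sets were lower (2.47%, against 1.38% of all) and 0 higher (0.865% of all). These 2 were probe sets of Fn1 and Adamts10.

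Averaged over both transgenes, Mmp19 fell with T0901317 and was the 1 member probe set called (limma adjusted p = 0.0489), against 0.568% of all probe sets. At an unadjusted p under 0.05, 19 member probe sets were higher (23.5%, against 12.7% of all) and 10 lower (12.3%, against 10.5%), with a median of -0.02. This split was 19 and 5 after quantile normalization, 22 and 5 after centring, and 12 higher and 17 lower with the log2 β-actin ratio as a covariate. Without LXRα T0901317 replicate 1, 7 member probe sets were called, those of Mmp19, Col4a1, Col4a2, Col6a3, Dcn, Pdgfrb and Timp2; 9.51% of all were then called, which is no lower a share than that of the members, and the fit rests on the same single LXRα T0901317 array. Averaged over both treatments, LXRα against GFP was lowest for Lum and Col3a1 at -0.96 (SE 0.23) and -0.95 (SE 0.39), and gave 0 member calls by limma (0.00631% of all), with 5 probe sets lower at an unadjusted p under 0.05 (6.17%, against 1.53% of all) and 0 higher (1.14% of all). The interaction, which is the T0901317 difference in LXRα livers minus that in GFP livers, gave 0 member calls by limma (0.00631% of all). At an unadjusted p under 0.05, its values were higher in 9 member probe sets (11.1%, against 2.34% of all) and lower in 3 (3.7%, against 2.42%).

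**Figure D1:**
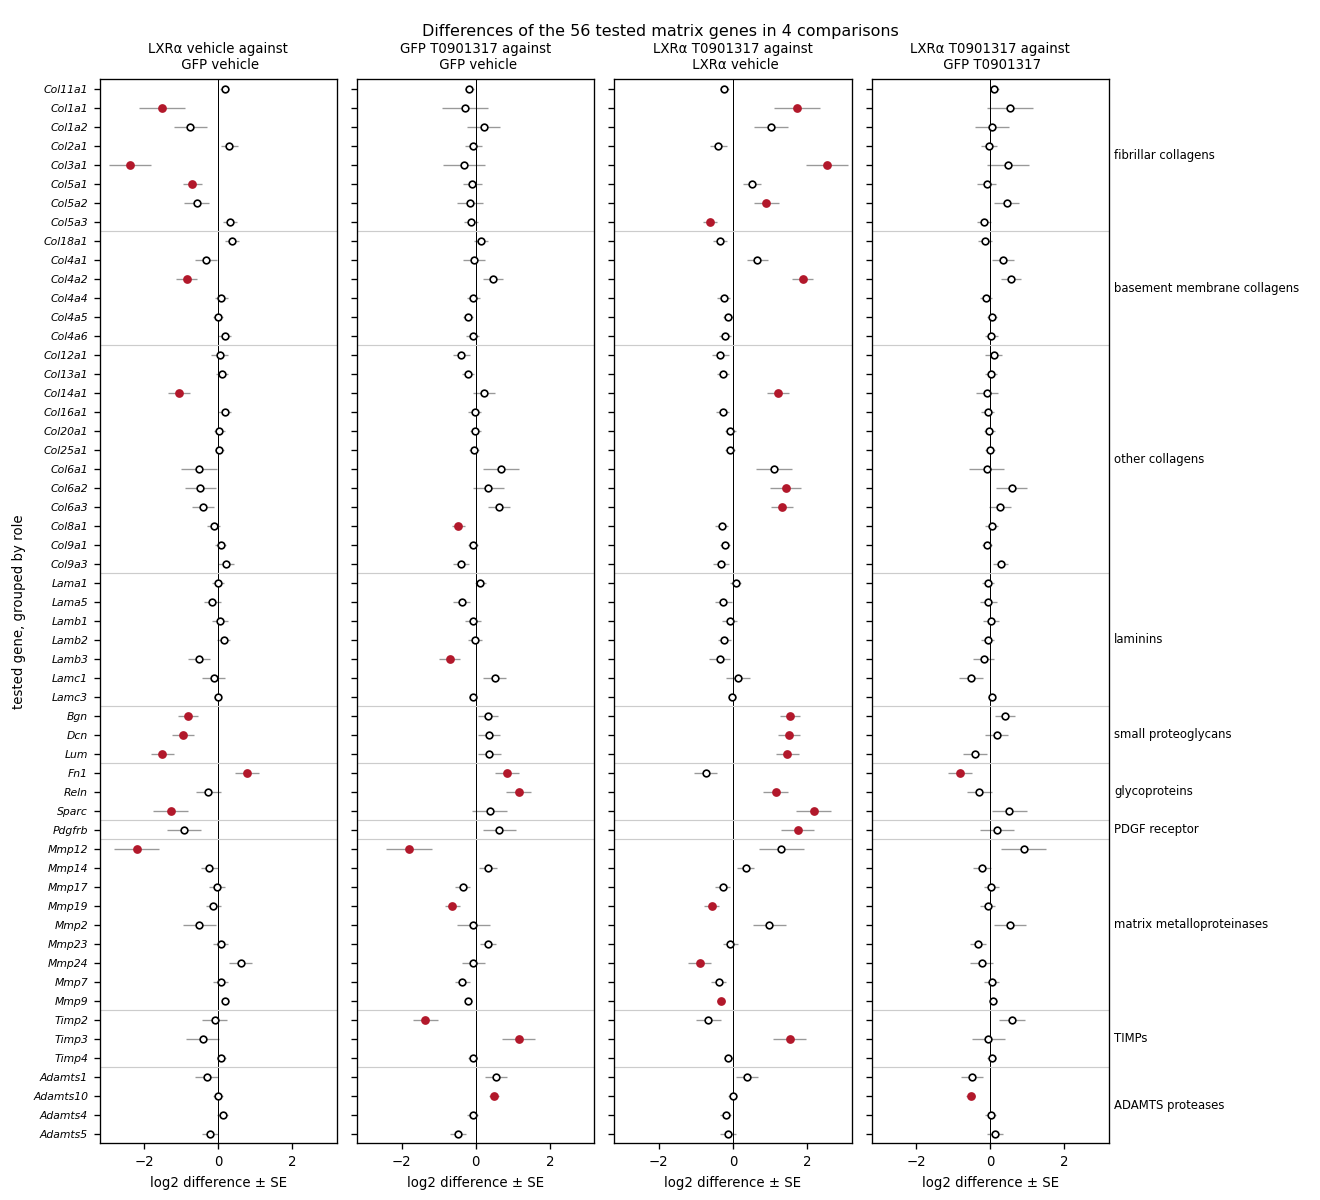
Log2 differences with their standard errors (limma) for the 56 tested member genes, 1 probe set each, in 4 comparisons, grouped by role. Filled red points have an unadjusted p under 0.05 (limma) and open points do not. In LXRα vehicle against GFP vehicle, 10 genes are red below zero (against 2.89% of all tested probe sets) and 1 above it (2.27%). In LXRα T0901317 against LXRα vehicle, 14 are red above zero (against 7.88% of all) and 4 below it (5.3%).

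Fibrillar collagens, the rope-like chains of interstitial matrix, had 8 of 9 genes tested. In LXRα vehicle against GFP vehicle livers, 5 of the 8 were lower and 3 higher, with a median of -0.64. At an unadjusted p under 0.05 (limma), 3 were lower (against 2.89% of all probe sets) and 0 higher (2.27%). Col3a1, the chain of type III collagen, gave intensities of 1421 and 599.7 in GFP vehicle, 215 and 146 in LXRα vehicle, 1194 and 461 in GFP T0901317 and 1106 and 968 in LXRα T0901317 livers. Both LXRα vehicle arrays lay apart below the rest, and the groups with GFP each held 1 high and 1 lower array. The log2 difference between LXRα and GFP under vehicle was -2.38 (SE 0.56, unadjusted p = 0.0038, limma adjusted p = 0.647). T0901317 in LXRα livers gave 2.54 (SE 0.56, unadjusted p = 0.00267, limma adjusted p = 0.182), and the interaction was 2.86 (SE 0.79, unadjusted p = 0.0086, limma adjusted p = 0.957). A dimmer Col3a1 probe set, 1427884_at, did not show this: it read 13.9 and 12.3 in GFP vehicle and 13.0 and 13.9 in LXRα vehicle livers, with a log2 difference of 0.04.

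Col1a1, the first chain of type I collagen, read 105 and 33.7 in GFP vehicle, 18.9 and 23.0 in LXRα vehicle, 79.8 and 29.4 in GFP T0901317 and 60.6 and 80.4 in LXRα T0901317 livers. LXRα vehicle was again the lowest group, and the GFP pairs spread more widely than the LXRα pairs. Its log2 difference was -1.51 between the vehicle groups (SE 0.62, limma adjusted p = 0.953) and 1.74 for T0901317 in LXRα livers (SE 0.62, limma adjusted p = 0.324). The other tested Col1a1 probe set, 1455494_at, ranged from 29.6 to 47.0 over all 8 arrays and gave -0.10 and 0.24 for the same comparisons. Col1a2, the second type I chain, read 211 and 98.2, then 75 and 96.4, then 236 and 119, then 178 and 169.7 in the same order of groups. Here the lower GFP vehicle array lay next to the higher LXRα vehicle array, and the log2 difference for T0901317 in LXRα livers was 1.03 (SE 0.45, unadjusted p = 0.0567).

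Type V collagen nucleates type I fibrils. Col5a1 read 94.2 and 68.6 in GFP vehicle and 44.6 and 54.9 in LXRα vehicle livers, with 65.9 to 86.6 on the T0901317 arrays. On this probe set the vehicle groups did not overlap and differed by -0.70 (SE 0.25, limma adjusted p = 0.881). They overlapped on the other tested probe set, 1434479_at, at 42.9 and 43.3 in GFP vehicle against 29.3 and 43.5 in LXRα vehicle livers. The log2 difference there was -0.27. Col5a2 read 75.6 and 92.9, 60.5 and 51.2, 96.5 and 59.4, then 134 and 80.2, and its T0901317 difference in LXRα livers was 0.90 (SE 0.34, limma adjusted p = 0.348). Col5a3 went the other way, with 40.1 and 52.2 in LXRα vehicle against 31.5 and 28.4 in LXRα T0901317 livers, a difference of -0.61 on the log2 scale (SE 0.19, limma adjusted p = 0.277). Col2a1 and Col11a1, the cartilage fibrillar chains, had no comparison at an unadjusted p under 0.05.

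**Figure D2:**
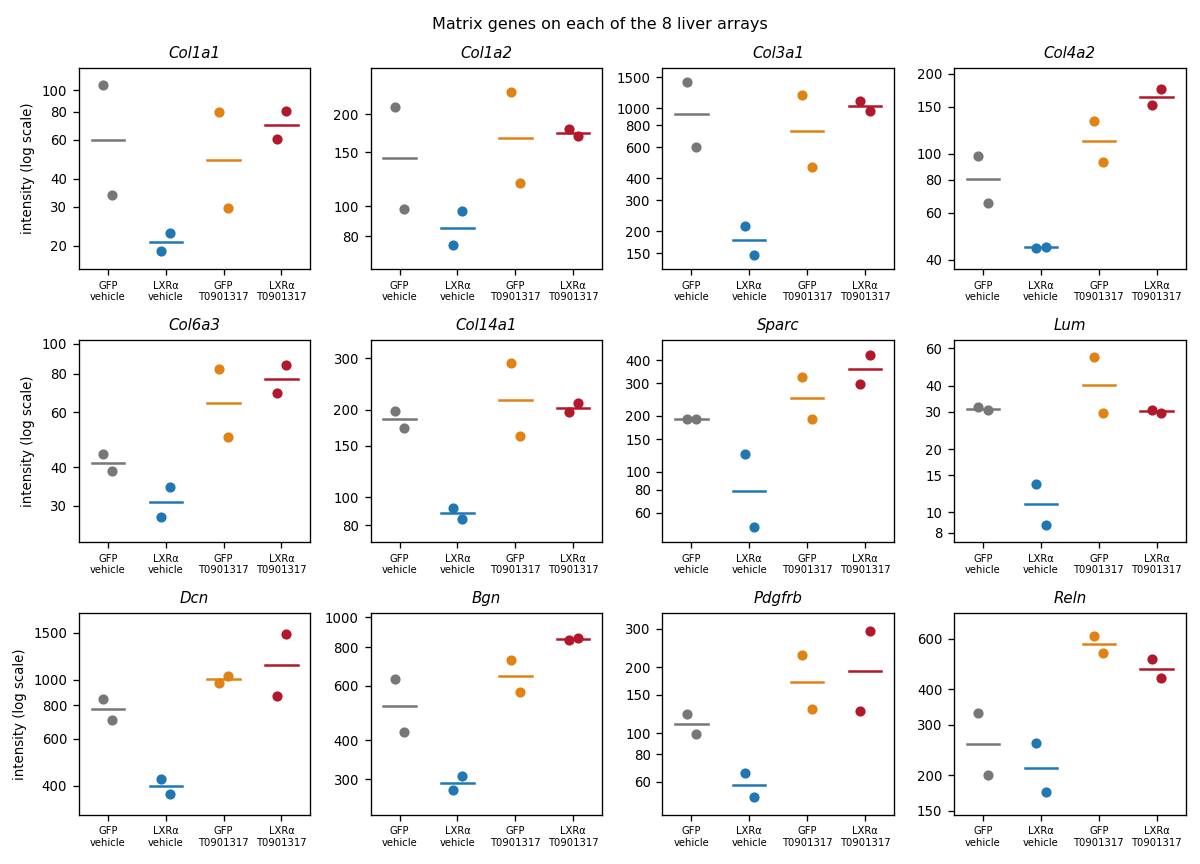
Deposited intensity of 12 matrix genes on each array, by group, on a log scale that differs between panels; points are arrays and bars are geometric means of 2. In 11 of the panels both LXRα vehicle arrays lie below the 6 other arrays, as for Col3a1 at 215 and 146; in the panel for Reln they do not.

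Basement membrane collagens had 6 of 8 genes tested, and in LXRα vehicle against GFP vehicle livers 3 were lower and 3 higher, with a median of 0.04. Col4a2 read 98.2 and 65.6 in GFP vehicle, 44.3 and 44.8 in LXRα vehicle, 133 and 93.2 in GFP T0901317 and 152 and 176 in LXRα T0901317 livers. Arrays with LXRα formed the lowest pair under vehicle and the highest pair under T0901317. The log2 differences were -0.85 between vehicle groups (SE 0.28, limma adjusted p = 0.872), 1.88 for T0901317 in LXRα livers (SE 0.28, unadjusted p = 0.000293, limma adjusted p = 0.131) and 1.18 for T0901317 averaged over transgenes (SE 0.20, limma adjusted p = 0.0687).

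Col4a1, its head-to-head partner, had 2 probe sets that differed in size of effect. On 1452035_at it read 222 and 187, then 76.5 and 53.3 in LXRα vehicle, then 339 and 197, then 359 and 284 in LXRα T0901317 livers. That probe set gave -1.67 between vehicle groups (SE 0.34, unadjusted p = 0.00171, limma adjusted p = 0.58) and 2.32 for T0901317 in LXRα livers (SE 0.34, unadjusted p = 0.000249, limma adjusted p = 0.131). The brighter 1426348_at read 233 and 205, 169 and 175, 224 and 202, then 356 and 207, with -0.34 between vehicle groups (SE 0.29). Both probe sets placed the LXRα vehicle arrays lowest. Col18a1, the precursor of endostatin, stood on the other side, at 1669.9 and 1643 in GFP vehicle and 2237 and 2071 in LXRα vehicle livers (log2 difference 0.38, SE 0.19, unadjusted p = 0.0871), with 1638 to 1856 on the T0901317 arrays.

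Of the other collagens, 12 of 19 genes were tested. They held 5 lower and 7 higher in LXRα vehicle livers, with a median of 0.03, and 4 of the 12 were higher with T0901317 in LXRα livers. Those 4 were the 3 chains of type VI collagen, which forms beaded microfibrils, and Col14a1, a collagen on fibril surfaces. Col6a3 read 44.0 and 38.8 in GFP vehicle, 27.5 and 34.4 in LXRα vehicle, 82.6 and 49.8 in GFP T0901317 and 69.4 and 85.4 in LXRα T0901317 livers. All 4 T0901317 arrays lay above all 4 vehicle arrays. T0901317 gave 1.32 in LXRα livers (SE 0.29, limma adjusted p = 0.182) and 0.98 averaged over transgenes (SE 0.20, limma adjusted p = 0.0777). Col6a2 gave 1.42 for T0901317 in LXRα livers (SE 0.42, limma adjusted p = 0.271) from 8.22 and 16.1 against 23.0 and 41.0. The value of 8.22 lay near the floor of 7.5 to which lower intensities were raised. The other tested Col6a2 probe set, 1426947_x_at, gave only 0.11, from 12.0 and 15.5 against 13.5 and 16.2. Col6a1 gave 1.11 (SE 0.48, unadjusted p = 0.0534) from 23.1 and 27.6 against 49.8 and 59.3.

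Col14a1 read 198 and 173 in GFP vehicle, 92.0 and 84.2 in LXRα vehicle, 288 and 162 in GFP T0901317 and 196 and 211 in LXRα T0901317 livers. No other group came near the LXRα vehicle pair. The vehicle groups differed by -1.07 (SE 0.30, unadjusted p = 0.00948, limma adjusted p = 0.774), and T0901317 in LXRα livers gave 1.21 (SE 0.30, limma adjusted p = 0.203). Its second probe set, 1428455_at, had the same signs with smaller values, -0.20 and 0.37. Col8a1, a short-chain collagen of vessel walls, read 15.6 and 20.2 in GFP vehicle against 12.1 and 13.6 in GFP T0901317 livers, a difference of -0.47 on the log2 scale (SE 0.18, limma adjusted p = 0.333).

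Laminins are the cross-shaped trimers of basement membranes. Of 10 genes, 7 were tested, and 0 of the 7 had an unadjusted p under 0.05 in LXRα vehicle against GFP vehicle or in LXRα T0901317 against LXRα vehicle livers (limma), with medians of -0.02 and -0.09. Lamb3, the β3 chain of epithelial laminin, read 35.3 and 20.5 in GFP vehicle, 18.9 and 18.6 in LXRα vehicle, 15.8 and 17.2 in GFP T0901317 and 11.9 and 18 in LXRα T0901317 livers. A single GFP vehicle array stood above the rest, and the log2 difference for T0901317 in GFP livers was -0.70 (SE 0.29, limma adjusted p = 0.37). Lamb1 read 26.4 to 36.1 on all 8 arrays. Lamc1 read 8.95 to 12.0 on 7 arrays and 21.2 on GFP T0901317 replicate 2.

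The small leucine-rich proteoglycans, which bind collagen fibrils and set their spacing, had LXRα vehicle as their lowest group. All 3 members, Lum, Dcn and Bgn, were tested. At an unadjusted p under 0.05 (limma), all 3 were lower in LXRα vehicle than in GFP vehicle livers (against 2.89% of all probe sets). At the same threshold all 3 were higher with T0901317 in LXRα livers (against 7.88% of all), with none called. Lum (lumican) read 31.5 and 30.6 in GFP vehicle, 13.7 and 8.71 in LXRα vehicle, 54.6 and 29.6 in GFP T0901317 and 30.7 and 29.6 in LXRα T0901317 livers. Apart from 1 brighter GFP T0901317 array, the 3 other groups gave nearly equal values, and the LXRα vehicle pair approached the floor of 7.5 to which lower intensities were raised. The difference between vehicle groups was -1.51 (SE 0.32, unadjusted p = 0.00233, limma adjusted p = 0.58), and T0901317 in LXRα livers gave 1.47 (SE 0.32, limma adjusted p = 0.182).

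Dcn (decorin) read 849 and 708 in GFP vehicle, 424 and 374 in LXRα vehicle, 973 and 1035 in GFP T0901317 and 866 and 1479 in LXRα T0901317 livers. The vehicle groups differed by -0.96 (SE 0.30, limma adjusted p = 0.855), and T0901317 gave 1.51 in LXRα livers (SE 0.30, unadjusted p = 0.00153, limma adjusted p = 0.172). Every T0901317 array lay above every vehicle array, and the averaged T0901317 difference was 0.94 (SE 0.21, limma adjusted p = 0.0893). Bgn (biglycan), whose promoter is shown above, read 629.8 and 424, then 276 and 307 in LXRα vehicle, then 726 and 573, then 843 and 858 in LXRα T0901317 livers. T0901317 gave 1.55 in LXRα livers (SE 0.27, unadjusted p = 0.000729, limma adjusted p = 0.146) and 0.32 in GFP livers (SE 0.27), with an interaction of 1.23 (SE 0.38, unadjusted p = 0.0148, limma adjusted p = 1). The 2 other Bgn probe sets had the same signs, at 1.19 and 0.59 for T0901317 in LXRα livers.

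Sparc (osteonectin), a matricellular protein that binds collagen, was measured by 2 probe sets, both lowest in LXRα vehicle and highest in LXRα T0901317 livers by group mean; with T0901317 in GFP livers they differed in sign, at -0.12 and 0.38. On 1416589_at it read 243 and 178 in GFP vehicle, 90.2 and 94.8 in LXRα vehicle, 231 and 158 in GFP T0901317 and 296 and 297 in LXRα T0901317 livers. The vehicle groups differed by -1.17 (SE 0.27, unadjusted p = 0.00353, limma adjusted p = 0.647) and T0901317 in LXRα livers gave 1.68 (SE 0.27, unadjusted p = 0.000455, limma adjusted p = 0.133). On 1448392_at the same differences were -1.29 (SE 0.47) and 2.18 (SE 0.47), from 125 and 50.1 in LXRα vehicle livers, a wider pair than on the first probe set.

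Fn1 (fibronectin) read 2076 and 1656 in GFP vehicle, 2388 and 4192 in LXRα vehicle, 2853 and 3847 in GFP T0901317 and 1972 and 1809 in LXRα T0901317 livers. LXRα alone and T0901317 alone each had both arrays above the GFP vehicle arrays, while livers with both lay at the level of GFP vehicle. The log2 differences were 0.77 for LXRα under vehicle (SE 0.32, limma adjusted p = 0.953), 0.84 for T0901317 in GFP livers (SE 0.32, limma adjusted p = 0.342) and -1.58 for the interaction (SE 0.45, unadjusted p = 0.0103, limma adjusted p = 0.957). A dimmer Fn1 probe set, 1437218_at, read 53.2 to 54.8 on all 4 vehicle arrays. With T0901317 it read 60.2 and 64.3 in GFP and 45.9 and 53.9 in LXRα livers. Its log2 difference was 0.02 between vehicle groups and 0.21 for T0901317 in GFP livers.

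Reln (reelin), a large secreted glycoprotein that stellate cells also express, had nearly the same difference with T0901317 in GFP as in LXRα livers. It read 330.0 and 200.1 in GFP vehicle, 259 and 175 in LXRα vehicle, 615 and 537 in GFP T0901317 and 509 and 436 in LXRα T0901317 livers. All 4 T0901317 arrays lay above all 4 vehicle arrays. T0901317 gave 1.16 in GFP livers (SE 0.33, limma adjusted p = 0.244) and 1.15 in LXRα livers (SE 0.33, limma adjusted p = 0.245), and 1.15 averaged over both (SE 0.23, unadjusted p = 0.00159, limma adjusted p = 0.076).

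Pdgfrb, the receptor that drives stellate cell growth, read 122 and 99.4 in GFP vehicle, 65.4 and 50.9 in LXRα vehicle, 227 and 129 in GFP T0901317 and 127 and 295 in LXRα T0901317 livers. In each T0901317 group 1 array stood well above its partner. The log2 difference was -0.93 between vehicle groups (SE 0.45, limma adjusted p = 0.963) and 1.75 for T0901317 in LXRα livers (SE 0.45, unadjusted p = 0.00641, limma adjusted p = 0.211). A second probe set of Pdgfrb, 1417148_at, ranged only from 17.8 to 19.7.

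MMPs had 9 of 18 genes tested, of which 5 were lower and 4 higher in LXRα vehicle than in GFP vehicle livers, with a median of -0.04. Mmp19, a secreted MMP that cuts basement membrane proteins, gave the 1 call. Its probe set 1421977_at read 22.8 and 19.4 in GFP vehicle, 17.1 and 17.8 in LXRα vehicle, 12.6 and 12.6 in GFP T0901317 and 12.6 and 11.2 in LXRα T0901317 livers. All 4 T0901317 arrays lay below all 4 vehicle arrays. Averaged over transgenes Mmp19 fell by 0.65 on the log2 scale (SE 0.09, unadjusted p = 0.000207, limma adjusted p = 0.0489), with -0.74 in GFP livers (SE 0.13, limma adjusted p = 0.146) and -0.55 in LXRα livers (SE 0.13, limma adjusted p = 0.191). The brighter probe set, 1421976_at, had the same arrangement, 35.1 to 47.3 under vehicle against 24.1 to 29.2 with T0901317, and an averaged difference of -0.60 (SE 0.14, limma adjusted p = 0.0947). With the log2 β-actin ratio as a covariate the adjusted p of 1421977_at was 0.114, and under 14 of its 18 alternatives the call was lost.

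Mmp12, the macrophage elastase, read 197 and 69.2 in GFP vehicle, 19.2 and 33.6 in LXRα vehicle, 44.6 and 25.2 in GFP T0901317 and 92.5 and 42.4 in LXRα T0901317 livers. Both GFP vehicle arrays lay above all arrays of LXRα vehicle and GFP T0901317. The log2 differences were -2.20 for LXRα under vehicle (SE 0.61, unadjusted p = 0.00913, limma adjusted p = 0.772), -1.80 for T0901317 in GFP livers (SE 0.61, unadjusted p = 0.0223, limma adjusted p = 0.303) and 3.10 for the interaction (SE 0.87, limma adjusted p = 0.957). Mmp12 is also a macrophage gene, and the summed intensity of 19 macrophage markers was 20988 to 23093 in GFP vehicle and 5769 to 15514 in LXRα vehicle livers; the part of those cells in the Mmp12 values was not tested.

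Mmp14, the membrane-bound MMP that activates pro-MMP2, had probe sets that disagreed in sign: 1448383_at read 109 and 83.1 in GFP vehicle against 111 and 130.0 in GFP T0901317 livers, while 1416572_at read 21.5 and 14.0 against 11.4 and 13.2. Mmp2, gelatinase A, read 7.71 to 29.1, with its highest value on LXRα T0901317 replicate 2. Mmp9, gelatinase B, was dim at 9.23 to 13.0 and gave -0.32 for T0901317 in LXRα livers (SE 0.10, limma adjusted p = 0.28). Mmp24 gave -0.89 for the same comparison (SE 0.31, limma adjusted p = 0.318), from 31.5 and 57.0 against 18.6 and 28.

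TIMPs had 3 of 4 genes tested. Timp3, the inhibitor that binds to matrix, read 41.0 and 52.2 in GFP vehicle, 40.2 and 29.9 in LXRα vehicle, 169 and 63.4 in GFP T0901317 and 96.8 and 104 in LXRα T0901317 livers. Every T0901317 array lay above every vehicle array. T0901317 gave 1.16 in GFP livers (SE 0.44, limma adjusted p = 0.342), 1.53 in LXRα livers (SE 0.44, limma adjusted p = 0.255) and 1.35 averaged over both (SE 0.31, unadjusted p = 0.00366, limma adjusted p = 0.0943).

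Timp2, which also takes part in the activation of pro-MMP2, had 4 tested probe sets that disagreed. The brightest, 1450040_at, read 143 and 176 in GFP vehicle, 126 and 172 in LXRα vehicle, 56.8 and 66.8 in GFP T0901317 and 125 and 68.8 in LXRα T0901317 livers, an averaged T0901317 difference of -1.01 (SE 0.24, unadjusted p = 0.00383, limma adjusted p = 0.0947). On 1433662_s_at the averaged difference was 1.01 (SE 0.31, limma adjusted p = 0.145) and on 1454677_at 0.83 (SE 0.26, limma adjusted p = 0.147), both in the opposite direction. The fourth, 1460287_at, read 83.9 and 83.9 in GFP vehicle and 53.1 and 56.1 in LXRα vehicle livers, with a log2 difference of -0.62 (SE 0.30). No direction for Timp2 is given on these arrays. Over all members, 22 genes had several tested probe sets, and their signs differed for 6 genes in LXRα vehicle against GFP vehicle, 8 with T0901317 in GFP livers and 3 with T0901317 in LXRα livers.

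**Figure D3:**
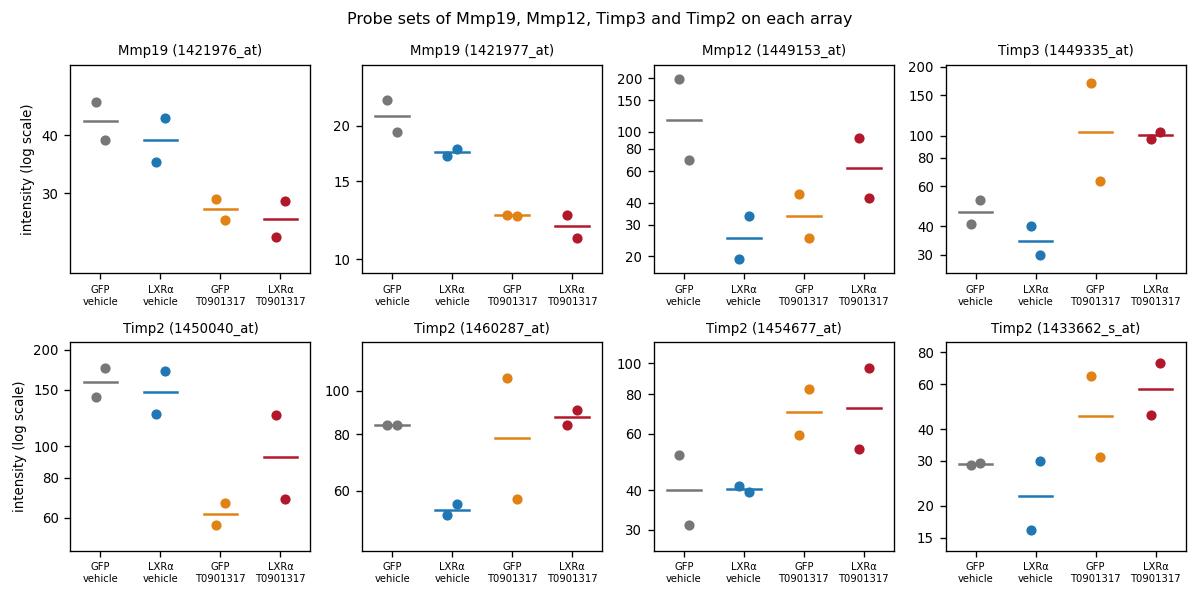
Deposited intensity of single probe sets of Mmp19, Mmp12, Timp3 and Timp2 on each array, by group, on a log scale that differs between panels; points are arrays and bars are geometric means of 2. Both Mmp19 panels show the T0901317 arrays below the vehicle arrays, and the Timp2 panels run in opposite directions, from 143 and 176 down to 56.8 and 66.8 on 1450040_at against 28.9 and 29.4 up to 64.7 and 31.1 on 1433662_s_at for GFP livers.

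ADAMTS proteases, which cut proteoglycans and process procollagens, had 4 of 7 genes tested, with a median of -0.12 in LXRα vehicle against GFP vehicle livers. Adamts10, which acts on fibrillin microfibrils, read 11.7 and 12.5 in GFP vehicle, 12.0 and 12.0 in LXRα vehicle, 15.6 and 18.7 in GFP T0901317 and 11.2 and 12.6 in LXRα T0901317 livers. The GFP T0901317 pair stood alone above the 6 other arrays. T0901317 in GFP livers gave 0.50 (SE 0.13, unadjusted p = 0.00605, limma adjusted p = 0.219), and LXRα against GFP under T0901317 gave -0.53 (SE 0.13, unadjusted p = 0.0046, limma adjusted p = 1). Adamts1 read 49.0 to 108, with no comparison at an unadjusted p under 0.05.

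On the brightest tested probe set, 28 of the 56 tested genes had no comparison at an unadjusted p under 0.05, and these probe sets differed by -0.76 to 1.03 between pairs of groups (lowest adjusted p 0.385). Col4a1, Col18a1, Col20a1, Mmp14 and Adamts4 are among the 28, and a dimmer probe set of each had an unadjusted p under 0.05 in at least 1 comparison. The 26 members that were not tested were dim on every probe set, at 2.86 to 13.1 including the untested probe sets of tested genes. They were Adamts7, Adamts8, Adamts15, Col4a3, Col7a1, Col9a2, Col10a1, Col11a2, Col15a1, Col17a1, Col19a1, Col22a1, Col26a1, Lama2, Lama3, Lama4, Mmp1a, Mmp1b, Mmp3, Mmp8, Mmp10, Mmp11, Mmp13, Mmp16, Mmp20 and Timp1. Timp1, the inhibitor often used as a sign of liver fibrosis, read 7.60 to 10.1 over the 8 arrays, and Mmp13, a collagenase, read 7.52 to 11.5. At this signal a difference in these members was not detectable.

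Genes that make, anchor or signal through matrix were listed apart from the members, and 0 of them were called by limma in any comparison. Of 13 tested matrix enzymes and chaperones, 0 were higher (against 2.27% of all probe sets) and 1 lower (2.89%) at an unadjusted p under 0.05 (limma) in LXRα vehicle livers, and 2 were higher (7.88% of all) and 0 lower (5.3%) with T0901317 in LXRα livers. Crtap, a chaperone of procollagen prolyl hydroxylation, read 51.2 and 43.4 in GFP vehicle, 23.9 and 25.5 in LXRα vehicle, 70.4 and 51.6 in GFP T0901317 and 73.1 and 83.4 in LXRα T0901317 livers. It was lowest in LXRα vehicle livers and gave 1.66 for T0901317 in LXRα livers (SE 0.22, unadjusted p = 0.000134, limma adjusted p = 0.092). Of 20 other matrix glycoproteins, 5 were lower (against 2.89% of all probe sets) and 0 higher (2.27%) in LXRα vehicle livers at an unadjusted p under 0.05 (limma), and 5 were higher (7.88% of all) and 1 lower (5.3%) with T0901317 in LXRα livers. Nid1 (nidogen), which links type IV collagen to laminin, read 169 and 103, then 36.5 and 24.9 in LXRα vehicle, then 138 and 101, then 182 and 171. Its differences were -2.13 between vehicle groups (SE 0.33, unadjusted p = 0.000341, limma adjusted p = 0.475) and 2.55 for T0901317 in LXRα livers (SE 0.33, unadjusted p = 0.000113, limma adjusted p = 0.092).

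Of 20 tested TGF-β and PDGF signalling genes, 5 were higher (against 7.88% of all probe sets) and 0 lower (5.3%) with T0901317 in LXRα livers at an unadjusted p under 0.05 (limma). In GFP livers 3 were higher (8.5% of all) and 2 lower (4.65%), and in LXRα vehicle against GFP vehicle livers 0 were higher (2.27% of all) and 2 lower (2.89%). Smad7, the inhibitory SMAD that TGF-β induces, read 49.7 and 56.5 in GFP vehicle, 32.4 and 42.5 in LXRα vehicle, 113 and 249 in GFP T0901317 and 104 and 123 in LXRα T0901317 livers. All T0901317 arrays lay above all vehicle arrays, with an averaged difference of 1.64 (SE 0.27, unadjusted p = 0.000508, limma adjusted p = 0.0622). Pdgfra, the other PDGF receptor, gave 1.15 for the same comparison (SE 0.20, limma adjusted p = 0.0687).

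Marker lists of the cell types in liver were summed on each array and set beside these values. The 12 tested stellate and mesenchymal markers summed to 1119 to 1437 in GFP vehicle, 811 to 1171 in LXRα vehicle, 1065 to 1382 in GFP T0901317 and 1163 to 1598 in LXRα T0901317 livers, so the groups overlapped; Hand2, Thy1, Myl9, Cnn1 and Lhx2 of that list were too dim to test. In LXRα vehicle against GFP vehicle livers 9 of the 12 were lower, with a median of -0.08. At an unadjusted p under 0.05 (limma) 1 was lower, against 2.89% of all probe sets. Macrophage and Kupffer markers were lower in 19 of 19 tested genes in the same comparison, with a median of -1.22. At an unadjusted p under 0.05 (limma) 8 of these macrophage markers were lower, against the same 2.89% of all probe sets. Their sum was 14173 to 24844 in GFP T0901317 and 15599.5 to 16529 in LXRα T0901317 livers.

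The 15 tested endothelial markers summed to 989 to 1574 under vehicle and 1717 to 1864 with T0901317, without overlap; this was 1 of 6 lists summed. Lyve1, of sinusoidal endothelium, was called with T0901317 averaged over transgenes, at 2.05 (SE 0.29, limma adjusted p = 0.0489). Cholangiocyte markers (7 tested, with Krt7, Krt19 and Cldn4 too dim) summed to 4634 to 8611 in GFP vehicle and 2637 to 3636 in LXRα vehicle livers. With T0901317 this sum was 4055 to 4183 in GFP and 4753 to 7859.7 in LXRα livers. Most of it came from Krt18 and Krt8, with Krt7 and Krt19 untested, so the sum is not read as a measure of bile duct cells. Krt18 read 5803 and 3188 in GFP vehicle and 1600 and 2231 in LXRα vehicle livers. Krt8 read 2367 and 1142, then 717 and 1210. By gene, 5 of the 7 were lower and 2 higher in LXRα vehicle than in GFP vehicle livers. Lymphocyte markers (7 tested, with Cd3d, Cd79a, Cd79b and Cd2 too dim) summed to 308 to 319 in GFP vehicle and 182 to 260.4 in LXRα vehicle livers. With T0901317 the sum was 283 to 509.7 in GFP and 332 to 352 in LXRα livers, so both LXRα vehicle arrays lay below the 6 others. By gene, however, 5 of the 7 were higher and 2 lower in LXRα vehicle than in GFP vehicle livers, with a median of 0.14. Ptprc was among the lower ones, at 186 and 168 in GFP vehicle and 106 and 42.0 in LXRα vehicle livers. Its log2 difference was -1.40 (SE 0.51, limma adjusted p = 0.885). Hepatocyte markers summed highest in LXRα vehicle livers, at 175466 to 180119.7, against 156552 to 157322 in GFP vehicle livers. These sums move with the matrix genes in part, and their part in the matrix values was not tested.

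**Figure D4:**
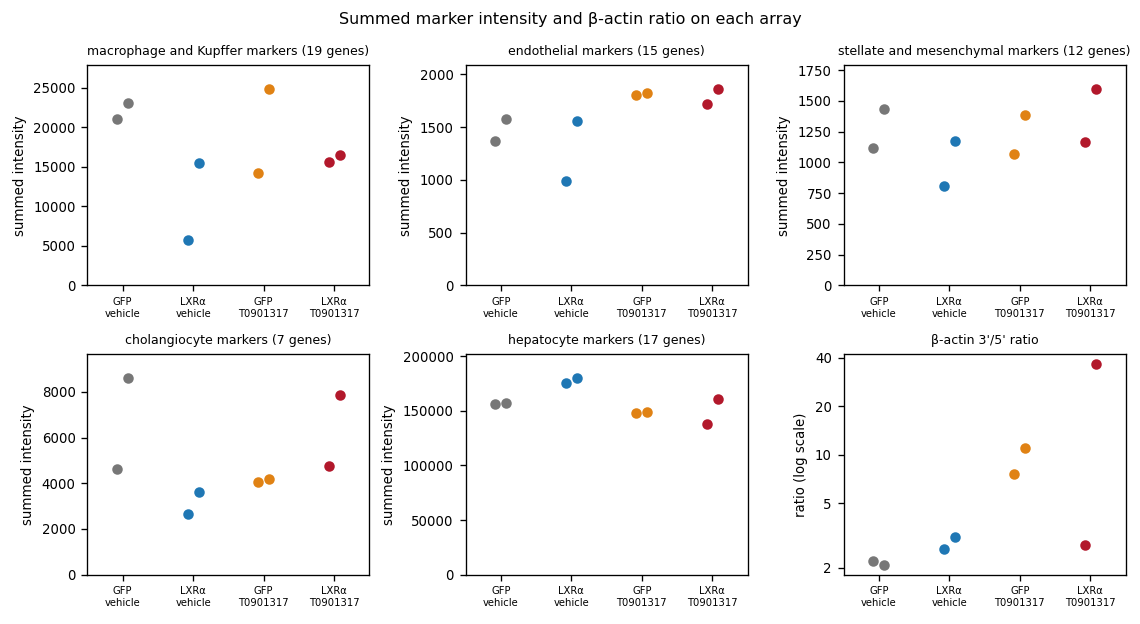
Summed intensity of 5 cell type marker lists on each array and the 3'/5' ratio of β-actin (log scale), by group; in the marker panels the left point of a pair is the lower array and the right point the higher. The macrophage, cholangiocyte, stellate and endothelial sums have their lowest array in LXRα vehicle livers, at 5769, 2637, 811 and 989. The hepatocyte sum does not. Krt18 and Krt8 make up most of the cholangiocyte sum, which is therefore not read as a measure of bile duct cells. The β-actin ratio is highest on an LXRα T0901317 array, at 36.3.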

How the data were processed

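Array values of 8 livers were used as the authors deposited them: 1 linear intensity per probe set and array. How probes were summarised and arrays scaled is not given in the sources used here. Groups came from the labels. Of 22626 probe sets without the 64 control probe sets, 20380 had 1 gene symbol in the platform table, 691 had several and 1555 had none; members need 1 symbol.

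Intensities were raised to a floor of 7.5 (20th percentile of positive values) and log2-transformed. Array medians differed by at most 0.141 on the log2 scale, so the deposited scaling was kept. The 15838 probe sets with a mean above the 30th percentile entered limma 3.58.1 (R 4.3.3): 1 fit of 4 group means on all 8 arrays (4 residual and 2.93 prior degrees of freedom, intensity trend), Benjamini-Hochberg adjustment over all tested probe sets, and a call at an adjusted p under 0.05. The steps were tested on simulated data. A log2 difference is the first group named minus the second.

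For each gene the brightest tested probe set was used. Named were a set list of central members, all members called, up to 8 further members per comparison by smallest unadjusted p under 0.05, and up to 3 genes per related list; the 14 genes lowest in LXRα vehicle livers were named after their values were seen. The members, lists and alternatives were chosen with earlier results of these data known. Alternatives covered scaling, floor, filter, trend, robust spread, replicate block, β-actin ratio, the compared groups alone, arrays left out, thresholds and averaging of probe sets. Promoter windows were read from RefSeq, GRCm38.p6; probe sets carry no coordinates of their own here.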

Additional observations from a re-analysis of the deposited data

How the results depend on the processing

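The count of member calls was 0 in every alternative run for 5 comparisons, all but T0901317 in LXRα livers and T0901317 averaged over transgenes. For the averaged comparison, 1 call became 0 under quantile normalization, centring on array medians and no filter. It also became 0 under the stricter filter (50th percentile), no intensity trend and the β-actin covariate. At an adjusted p under 0.10 (limma) the averaged comparison had 10 member calls, against 738 of all 15838 tested probe sets. Leaving out 1 array gave 0 to 7 calls there and 0 to 2 for T0901317 in LXRα livers. The adjusted p of Mmp19 (1421977_at) ranged from 0.0152 to 0.191. With replicate number as a block, the averaged comparison had 0 calls and Mmp19 an adjusted p of 0.0658; the numbers did not pair the arrays, since deviations of equal numbers correlated at -0.138 to 0.247, and the block changed no other count of calls.

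The members' median depends on how many dim probe sets enter. It was -0.00 without a filter and -0.26 with the filter at the 50th percentile for LXRα against GFP under vehicle (leaving out arrays, -0.22 to -0.01). That stricter filter gave 0.05 for T0901317 in GFP livers (-0.08 to 0.07), 0.44 for T0901317 in LXRα livers (-0.12 to 0.06), 0.26 for averaged T0901317 (-0.05 to 0.03), -0.10 for averaged LXRα (-0.11 to 0.00) and 0.34 for the interaction (-0.02 to 0.19). LXRα against GFP under T0901317 ranged from -0.06 to 0.11 with arrays left out. Quantile normalization and centring gave 0.07 and 0.03 for T0901317 in LXRα livers; centring gave 0.06 and the β-actin covariate -0.09 for averaged T0901317. The spread between replicates of such a median was 0.0725 (SD). Of 929 alternative values of named genes, 909 kept direction and side of the threshold, 14 lost a call, 5 gained one, and Timp2 turned to 0.28 (adjusted p 0.277) when its probe sets were averaged. The causes of these shifts were not tested. Signal over background limits the 26 untested genes.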

Other observations

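Receptors and proteases outside the member list were also measured. Of 15 tested integrins and matrix receptors, 3 were higher (against 7.88% of all probe sets) and 0 lower (5.3%) with T0901317 in LXRα livers at an unadjusted p under 0.05, with 0 called by limma. Itgav, the αv integrin that binds fibronectin and activates latent TGF-β, read 228 and 162 in GFP vehicle, 107 and 142 in LXRα vehicle, 354 and 308 in GFP T0901317 and 265 and 287 in LXRα T0901317 livers. All T0901317 arrays lay above all vehicle arrays, with an averaged difference of 0.97 (SE 0.19, limma adjusted p = 0.0737). Itga6, a laminin receptor chain, gave 0.76 (SE 0.16, limma adjusted p = 0.0812). Cd44, the hyaluronan receptor, read 119 and 40.7 in LXRα vehicle against 160.4 and 409 in LXRα T0901317 livers, a difference of 1.88 on the log2 scale (SE 0.68, limma adjusted p = 0.331) from pairs that spread widely.

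Of 17 other matrix proteases and inhibitors, 3 were lower (against 2.89% of all probe sets) and 1 higher (2.27%) in LXRα vehicle against GFP vehicle livers at an unadjusted p under 0.05, with 0 called by limma. The higher one was Serpinf2, the plasmin inhibitor made by hepatocytes, at 3691 and 5897 against 2498 and 2352, a difference of 0.94 on the log2 scale (SE 0.36, limma adjusted p = 0.904). With T0901317 in LXRα livers 12 of the 17 were higher, with a median of 0.39, and at an unadjusted p under 0.05 (limma) 2 were higher (7.88% of all), 1 of them Adam10 at 0.65, and 2 lower (5.3% of all). The 2 lower ones were Serpinf2 and Plg: T0901317 in LXRα livers gave -1.24 for Serpinf2 (SE 0.36, limma adjusted p = 0.257) and -0.82 for Plg, the plasminogen gene (SE 0.26, limma adjusted p = 0.286). Periostin (Postn), a matricellular protein of fibrotic tissue, read 219.6 and 162 in GFP vehicle, 76.5 and 43.3 in LXRα vehicle, 249 and 101 in GFP T0901317 and 221 and 180.4 in LXRα T0901317 livers. Its LXRα vehicle pair lay below the 6 other arrays, with -1.71 between vehicle groups (SE 0.48, limma adjusted p = 0.772).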
